A study of Mus musculus with 27 samples.

Results

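The transcripts described here are the 37 genes of the mouse mitochondrial genome: 13 mRNAs, 2 rRNAs and 22 tRNAs. They were taken as every row whose symbol starts with mt-, which gave 37 of 46078 genes both in the table of ProT cells and in the table of empty-vector and TAL1 mice. The table of AKT(E17K) mice held 0 such rows among 22906 and was not used. The 7 groups came to 21 of the 27 libraries of the series, with 3 libraries a group. In 5 of the groups, cells of the mouse line ProT were sampled 0, 6, 12, 18 and 24 h into treatment with 4-hydroxytamoxifen, and the labels describe TAL1 expression as induced through CreER and loxP in all of them. TAL1 is a transcription factor that is switched on in many T cell acute lymphoblastic leukaemias. The other two groups were thymus of C57BL/6 mice after a bone marrow transplant, labelled as empty vector or as TAL1 overexpression. The age of the mice and the share of thymus cells that carried the vector were not stated in the labels. No ProT library with the drug and without the TAL1 construct was analysed here, so time in culture, the drug, Cre and TAL1 cannot be told apart. Separate cultures are not named for the 3 ProT libraries of a time, and p-values in ProT cells thus rest on a spread between libraries that may be technical only.

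The mitochondrial genome is a small circle that codes for the hydrophobic core subunits of the respiratory chain and the ATP synthase. Both strands are transcribed as long precursors, and the tRNAs that lie between the other genes are cut out to release mRNAs and rRNAs. The rRNAs and tRNAs serve the organelle's own ribosomes, while the enzymes that transcribe, cut, tail and translate these RNAs are all made from nuclear genes. Dividing lymphoid cells depend on this system because respiration supports nucleotide and aspartate synthesis.

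Positions and sequences come from GENCODE M21 for GRCm38, in which all 37 identifiers had an entry. The plus strand of the reference held 12 mRNAs, both rRNAs and 14 tRNAs. The minus strand held mt-Nd6 and 8 tRNAs, namely mt-Tq, mt-Ta, mt-Tn, mt-Tc, mt-Ty, mt-Ts1, mt-Te and mt-Tp. The 5 tRNA genes on which the results turn are printed 5′ to 3′ on their own strand, with the anticodon in capitals as found from its stem by base pairing. mt-Tp (proline; chrM:15356-15422, minus strand) and mt-Tq (glutamine; chrM:3772-3842, minus strand) differed most between 24 and 0 h among the tRNAs that passed the test. mt-Te (glutamate; chrM:14071-14139, minus strand) differed least among them, mt-Ts1 (serine; chrM:6870-6938, minus strand) held the most tRNA counts, and mt-Tm (methionine; chrM:3845-3913, plus strand) passed the test whichever library was left out.
mt-Tp: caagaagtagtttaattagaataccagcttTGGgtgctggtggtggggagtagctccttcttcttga
mt-Tq: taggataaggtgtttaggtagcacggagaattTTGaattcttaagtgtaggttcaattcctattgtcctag
mt-Te: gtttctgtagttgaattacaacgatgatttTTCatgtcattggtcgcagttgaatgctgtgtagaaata
mt-Ts1: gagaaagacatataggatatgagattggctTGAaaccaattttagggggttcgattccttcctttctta
mt-Tm: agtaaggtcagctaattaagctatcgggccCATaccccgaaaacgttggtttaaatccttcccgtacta

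Several mitochondrial genes share bases, which bears on how reads were counted. The ATP synthase genes mt-Atp8 and mt-Atp6 share 43 bases at chrM:7927-7969, where capitals mark the start codon of mt-Atp6 and the stop codon of mt-Atp8. The complex I genes mt-Nd4l and mt-Nd4 share 7 bases at chrM:10167-10173, in capitals in a stretch from chrM:10147-10193.
mt-Atp8 and mt-Atp6: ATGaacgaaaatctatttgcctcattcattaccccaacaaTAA
mt-Nd4l and mt-Nd4: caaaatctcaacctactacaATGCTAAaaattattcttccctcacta
On opposite strands, mt-Nd5 and mt-Nd6 share 14 bases, mt-Co1 and mt-Ts1 share 3 and mt-Ti and mt-Tq share 3. The strand setting and overlap mode of the counting are not given in the sources used here, so reads of a gene and of its antisense partner cannot be told apart. Each minus-strand gene is therefore uncertain in level.

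Levels are in CPM, counts per 1000000 counts of the library: for single mitochondrial genes and for genes of the nuclear lists the total is that over genes that passed the filter, scaled with a TMM factor, and for sums over genes, Tal1 and markers it is the unscaled total over all genes. Counts in genes came to 2660641 to 6599146 per ProT library and 3893990 to 11302098 per thymus library. Tal1 had 6920 to 19759 counts in every ProT library, at 2601 to 2965 CPM at 0 h and 2004 to 2169 at 24 h, and 0 counts in all 6 thymus libraries. The labels of the TAL1 mice could thus not be checked against this gene. In ProT cells, Tal1 was already counted before treatment. The 6 h libraries, with 2839 to 3314 CPM, overlapped those of 0 h. From 12 h on no library exceeded 2358 CPM, so all of these lay under the 0 h libraries. The induction named in the ProT labels was therefore not seen as a higher Tal1 level from 12 h on. Whether reads of the TAL1 construct are counted in this gene was not tested. Thymus libraries held all 13 T lineage markers, at 11926 to 16554 CPM summed. ProT cells held 10 to 13 of these markers in a group at 802 to 1090 CPM, with Cd4 and Cd8a at 0 or 1 count, and Foxn1, Krt5, Krt8, Pax5 and Ms4a1 at 0 in every ProT library. Among ProT libraries, 3 were singled out after seeing the data, and results that rest on them are given with and without them. The 6 h library 1 differed from the other 6 h libraries over all genes (chi-square per degree of freedom of 22.8 and 18.7, against 3.78 between the other two). The 12 h libraries 2 and 3 were singled out on their mitochondrial rRNA to mRNA ratio alone. Over all genes they were closer to each other (7.31) than to 12 h library 1 (19.9 and 18.4), so results are given without library 1 as well.

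Mitochondrial transcripts made up 14.2% ± 1.0 (SD, n = 3) of the counts in genes of ProT cells at 0 h and 9.95% ± 0.210 (SD, n = 3) at 24 h. The 3 libraries at 0 h stood at 15.4, 13.8 and 13.5%, and those at 24 h at 10.05, 9.71 and 10.1%, with no overlap. Shares at 6 h were 10.9, 14.9 and 16.01%, so that library 1 lay near the 24 h libraries and the other two near those at 0 h. At 12 h the shares were 10.2, 10.4 and 12.8% and at 18 h 10.6, 11.6 and 11.8%. Wilson 95% intervals for these shares were at most 0.0434 points wide on either side and cover counting error only. In thymus the share was 11.2% ± 0.262 (SD, n = 3) with the empty vector and 11.5% ± 0.446 (SD, n = 3) in TAL1 mice.

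**Figure D1:**
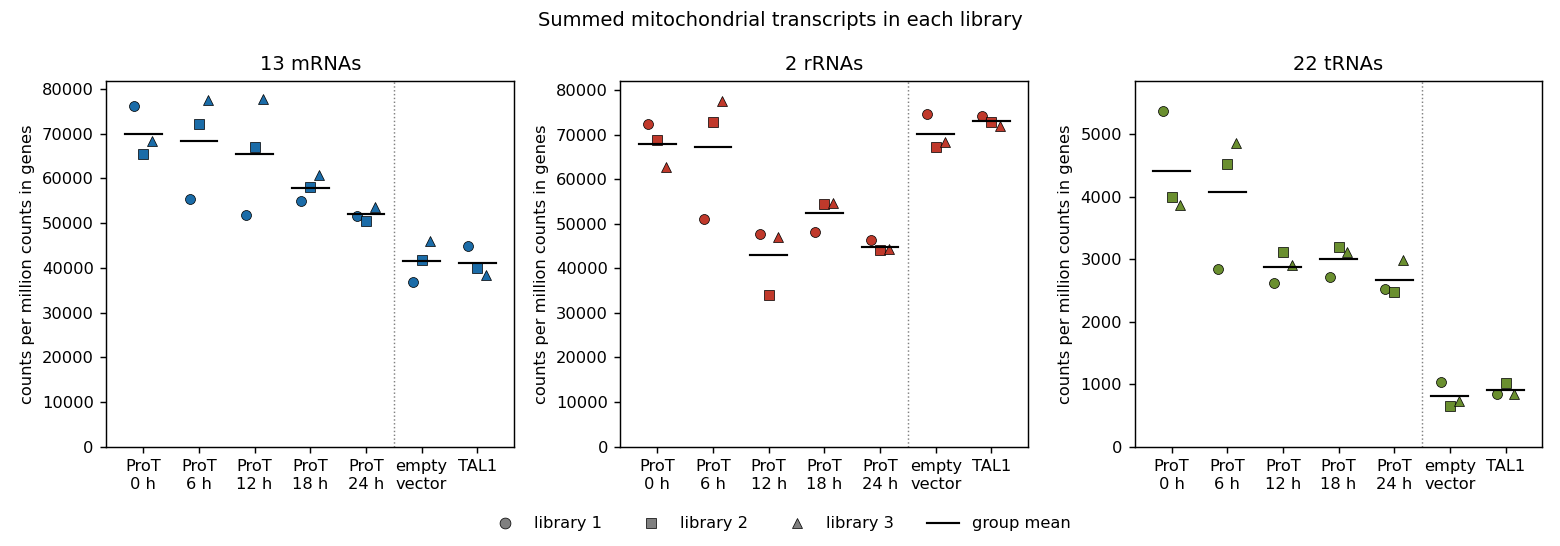
Summed counts of the 13 mRNAs, 2 rRNAs and 22 tRNAs in CPM (y axis, linear from 0) in each library of the 7 groups (x axis), with library number as symbol and the group mean as a bar; the dotted line separates tables that were deposited separately. All 3 sums are lower at 24 h than at 0 h in every ProT library, 6 h library 1 lies below the other 6 h libraries, and the 2 thymus groups overlap in each sum.

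At 0 h the classes differed widely in level per length, given here as CPM per kb of gene. Among the 37 genes, the highest was mt-Ts1 at 39616 CPM per kb, followed by the large and small ribosomal RNAs mt-Rnr2 at 37153 and mt-Rnr1 at 16510. The gene of mt-Ts1 has 69 bases and that of mt-Rnr2 1582, and how reads that cover a gene in part were counted is not stated. Levels per length of tRNA genes are thus uncertain beside those of longer genes. In CPM the lowest 0 h values were 2373 for mt-Ts1 and 51498 for mt-Rnr2. Among the mRNAs, mt-Atp6, a subunit of the ATP synthase proton channel, led with 13598 CPM per kb. Next came mt-Co2 at 10837, mt-Co3 at 9818, mt-Nd4 at 9030, mt-Nd1 at 8946 and mt-Cytb at 8920 CPM per kb. mt-Nd5 at 714 and mt-Nd4l at 681 CPM per kb were the lowest mRNAs, both at levels under those of several tRNAs. At 24 h the first 5 ranks were held by the same genes in the same order: mt-Ts1, mt-Rnr2, mt-Rnr1, mt-Atp6 and mt-Co2. Among tRNA counts in ProT libraries, the minus-strand genes held 92.1 to 94.2% and mt-Ts1 alone 53.8 to 64.7%. The plus-strand tRNAs mt-Tf and mt-Ts2 had too few counts to pass the filter, which left 35 of the 37 genes for testing in ProT cells.

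Between 0 and 24 h, mitochondrial transcripts of all 3 classes fell in ProT cells and none rose. Of the 35 tested, 29 were lower at an edgeR adjusted p under 0.05: 12 of 13 mRNAs, both rRNAs and 15 of 20 tRNAs. The background in this comparison was 18.7% of 13610 genes in either direction and 9.30% lower. The median log2 fold change was -0.88 over the 35 genes and -0.01 over all genes tested. By class the median was -0.68 for mRNAs, -0.70 for rRNAs and -1.09 for tRNAs. The 6 genes that did not pass were mt-Nd6, mt-Tg, mt-Tk, mt-Tr, mt-Th and mt-Tl2, and each had a log2 fold change below 0. The calls of mt-Nd1, mt-Nd4, mt-Cytb, mt-Co2, mt-Atp6, mt-Rnr1 and mt-Te were lost without 0 h library 1, and 22 of the 29 were kept whichever library of the 2 times was left out. Several were lost without other libraries too. Of the 6 runs with 1 library left out, mt-Rnr1 was called in 1, mt-Nd4 in 2, mt-Cytb in 3 and mt-Nd1 and mt-Te in 4 each. Without the 3 libraries singled out the median log2 fold change of the mitochondrial genes was -0.87. Counts give shares of a library, so less mitochondrial RNA per cell, more nuclear RNA per cell and fewer cells of a type cannot be told apart. Reads in no annotated feature moved with time as well, from 21.1 to 22.2% at 0 h to 17.8 to 18.4% at 24 h. Summed erythroid markers, 6 of 6 present and mostly Hbb-bt, stood at 296 to 434 CPM at 0 h and, without overlap, at 466 to 515 CPM at 24 h. Summed myeloid markers, 7 of 7 present, went from 63.1 to 76.4 CPM at 0 h to 51.0 to 60.7 at 24 h, and B cell markers, 4 of 6 present with Ms4a1 and Pax5 at 0, from 17.7 to 25.7 to 9.11 to 15.8. The part of these values in the fall was not tested.

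**Figure D2:**
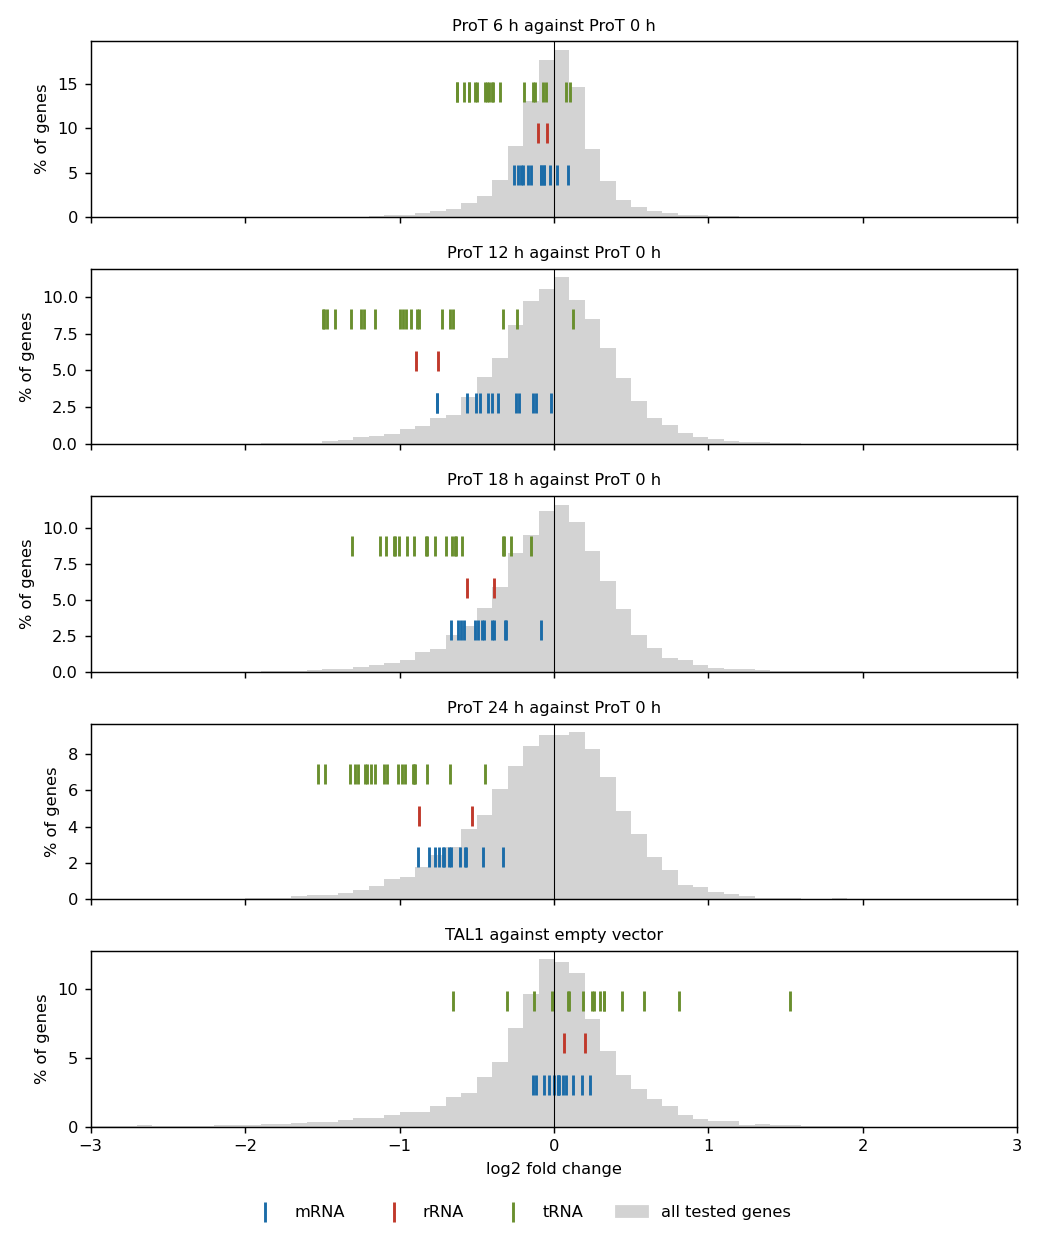
Log2 fold change (x axis) of all tested genes as grey bars in percent of genes (y axis) and of the mitochondrial genes as coloured ticks by class, for 4 ProT times against 0 h and for TAL1 against empty vector; the height of the ticks only separates the classes. At 24 h every tick lies below 0, with tRNAs around a median of -1.09, while in thymus the mRNA ticks lie between -0.14 and 0.23.

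Complex I, which passes electrons from NADH to ubiquinone, takes 7 of the mRNAs, and 6 of these fell. mt-Nd5 (ENSMUSG00000064367; chrM:11742-13565, plus strand), a proton-pumping subunit, stood at 1385, 1371 and 1150 CPM at 0 h and at 839, 758 and 782 CPM at 24 h. Its 6 h levels were 886, 1470 and 1488 CPM. The 12 h libraries stood at 837, 693 and 774 CPM, those of 18 h at 734, 830 and 895 CPM. All 9 libraries from 12 h on thus lay under every library at 0 h, as did library 1 at 6 h. The log2 fold change at 24 h was -0.71 ± 0.15 (SE; 1.64-fold lower, edgeR adjusted p = 0.00135). mt-Nd3 (ENSMUSG00000064360; chrM:9459-9806, plus strand), a small subunit that takes part in the switch between active and resting complex I, had the largest fall among mRNAs. It went from 2703, 2234 and 2137 CPM at 0 h to 1278, 1308 and 1258 CPM at 24 h, with no overlap. This was a log2 fold change of -0.88 ± 0.18 (SE; 1.84-fold lower, edgeR adjusted p = 0.00139). The other proton-pumping subunits were mt-Nd2 at -0.58 ± 0.15 (SE) and mt-Nd4 at -0.46 ± 0.15 (SE), with edgeR adjusted p of 0.00848 and 0.0310. The membrane-arm subunits mt-Nd1 and mt-Nd4l changed by -0.61 ± 0.17 and -0.77 ± 0.17 (SE), with edgeR adjusted p of 0.0116 and 0.00257.

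mt-Nd6 (ENSMUSG00000064368; chrM:13552-14070), the mRNA of the minus strand, was the 1 of the 13 mRNAs that did not pass at 24 h. It stood at 2001, 1616 and 1637 CPM at 0 h and at 1404, 1375 and 1390 CPM at 24 h. The 24 h libraries lay under all 0 h libraries. The log2 fold change was -0.33 ± 0.13 (SE; 95% interval -0.60 to -0.06, edgeR adjusted p = 0.0759). At 12 h mt-Nd6 was at 1491, 1621 and 2064 CPM, overlapping the 0 h libraries, with a log2 fold change of -0.02 ± 0.13 (SE). Its neighbour on the same strand, the tRNA mt-Te, had the smallest fall of the tRNAs that passed. It stood at 520, 375 and 359 CPM at 0 h and between 294 and 313 CPM at 24 h, a log2 fold change of -0.45 ± 0.12 (SE; edgeR adjusted p = 0.0114). The other 7 minus-strand tRNAs passed at 24 h with log2 fold changes from -1.53 to -0.82. Whether mt-Nd6 and mt-Te differed from the other genes in their change was not tested.

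The mRNAs of complexes III, IV and V fell as well, with 1 of 1, 3 of 3 and 2 of 2 passing. mt-Cytb (ENSMUSG00000064370; chrM:14145-15288, plus strand), the only mitochondrially encoded subunit of complex III, stood at 11084, 9589 and 9941 CPM at 0 h and at 6772, 6502 and 7345 CPM at 24 h. Its log2 fold change was -0.57 ± 0.18 (SE; edgeR adjusted p = 0.0227). mt-Co1 (ENSMUSG00000064351; chrM:5328-6872, plus strand), the catalytic subunit of cytochrome c oxidase, complex IV, went from 8821, 7613 and 7414 CPM at 0 h to 4426, 4292 and 4893 CPM at 24 h. Every 24 h library lay under the 0 h libraries, and the log2 fold change was -0.81 ± 0.19 (SE; 1.75-fold lower, edgeR adjusted p = 0.00449). The other subunits of that complex, mt-Co2 and mt-Co3, changed by -0.68 ± 0.18 and -0.72 ± 0.18 (SE), with edgeR adjusted p of 0.00970 and 0.00517. In the ATP synthase, complex V, mt-Atp6 changed by -0.66 ± 0.17 and mt-Atp8 by -0.75 ± 0.15 (SE), with edgeR adjusted p of 0.00733 and 0.00139. The make-up of the summed mRNA by complex moved by little: complex I came to 44.1% ± 0.583 at 0 h and 46.3% ± 0.224 at 24 h (SD, n = 3), and complex IV to 30.1% ± 0.120 and 27.8% ± 0.127 (SD, n = 3). These shares did not overlap between the 2 times, and the difference was not tested.

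Both rRNAs fell. mt-Rnr2 (ENSMUSG00000064339; chrM:1094-2675, plus strand), the RNA of the large mitochondrial ribosomal subunit, stood at 64092, 60736 and 51498 CPM at 0 h and at 32940, 30872 and 32337 CPM at 24 h. Its log2 fold change was -0.87 ± 0.19 (SE; 1.83-fold lower, edgeR adjusted p = 0.00221). mt-Rnr1 (ENSMUSG00000064337; chrM:70-1024, plus strand), the RNA of the small subunit, went from 16404, 16790 and 14107 CPM to 11547, 10262 and 10999 CPM. Its log2 fold change was -0.53 ± 0.17 (SE; 1.44-fold lower, edgeR adjusted p = 0.03001), and the call was kept in 1 of the 6 runs with 1 library left out. Neither gene's 24 h libraries overlapped those at 0 h. The ratio of mt-Rnr2 to mt-Rnr1 counts was 3.73 ± 0.159 at 0 h and 2.93 ± 0.0781 at 24 h (SD, n = 3), with no overlap and no test of its own.

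Among tRNAs, 15 of the 20 tested fell at 24 h: 8 of 8 on the minus strand, at a median log2 fold change of -1.20, and 7 of 12 on the plus strand, at -1.0. mt-Tp (ENSMUSG00000064372), the proline tRNA, stood at 516, 427 and 341 CPM at 0 h and at 138, 133 and 187 CPM at 24 h. The 6 h libraries had 162, 362 and 419 CPM, the 12 h libraries 155, 168 and 140 CPM, and the 18 h libraries 204, 257 and 259 CPM. Every library from 12 h on lay under all 0 h libraries, and the log2 fold change at 24 h was -1.48 ± 0.21 (SE; 2.80-fold lower, edgeR adjusted p = 2.82e-05). mt-Tq (ENSMUSG00000064343), the glutamine tRNA, went from 186, 159 and 106 CPM at 0 h to 46.0, 45.7 and 63.7 CPM at 24 h. With a log2 fold change of -1.53 ± 0.25 (SE; 2.88-fold lower, edgeR adjusted p = 0.000126), it had the largest fall among all 35 genes. mt-Ts1, the serine tRNA that reads UCN codons, stood at 3411, 2416 and 2373 CPM at 0 h and 1456, 1361 and 1822 CPM at 24 h. Its log2 fold change of -0.82 ± 0.19 (SE; edgeR adjusted p = 0.00328) stands beside -0.81 for mt-Co1, whose 3′ end it overlaps. The minus-strand cluster between mt-Nd2 and mt-Co1, which holds the alanine, asparagine, cysteine and tyrosine tRNAs, had log2 fold changes of -1.16 for mt-Ta, -1.27 for mt-Tn, -1.19 for mt-Tc and -1.22 for mt-Ty, each with an SE from 0.22 to 0.27.

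On the plus strand, the isoleucine tRNA mt-Ti had the largest fall, from 55.2, 55.3 and 38.0 CPM at 0 h to 20.7, 16.9 and 21.2 CPM at 24 h. The log2 fold change was -1.32 ± 0.23 (SE; 2.49-fold lower, edgeR adjusted p = 0.000278). mt-Tm, the methionine tRNA that also starts mitochondrial translation, went from 123, 109 and 79.4 CPM to 52.4, 50.1 and 63.3 CPM. Its log2 fold change was -0.90 ± 0.18 (SE; edgeR adjusted p = 0.00123). mt-Tv, mt-Tl1, mt-Tw, mt-Td and mt-Tt, for valine, leucine, tryptophan, aspartate and threonine, fell by 0.91 to 1.10 on the log2 scale. mt-Tg, the glycine tRNA, varied widely within a time. It was at 111, 26.4 and 65.0 CPM at 0 h and at 47.5, 38.7 and 16.8 CPM at 24 h, which overlap. The lysine, arginine, histidine and leucine tRNAs mt-Tk, mt-Tr, mt-Th and mt-Tl2 were at 5 CPM or less in every ProT library, and none passed.

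**Figure D3:**
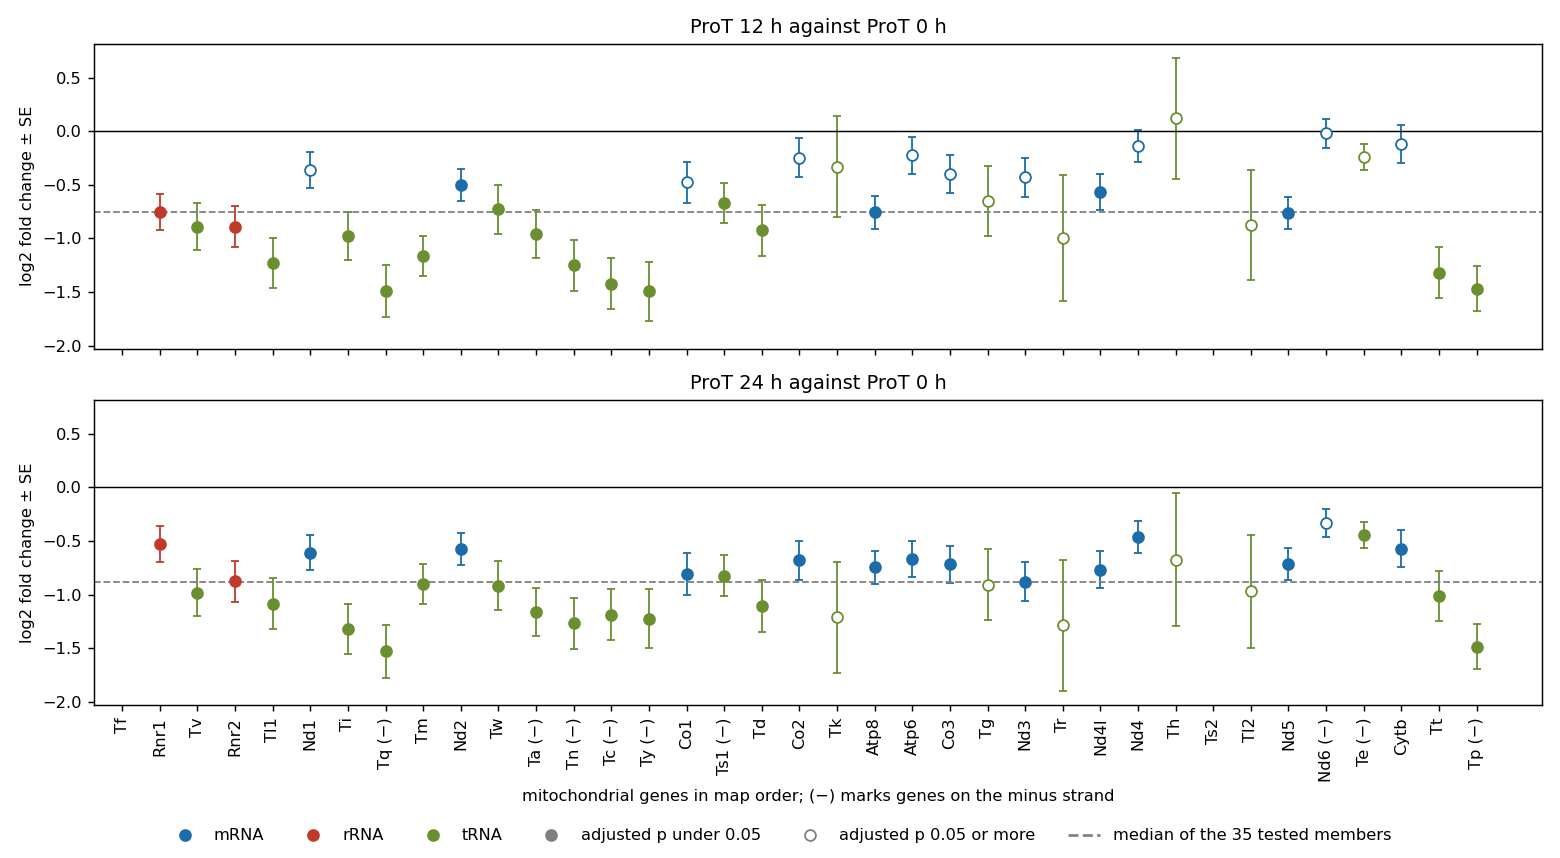
Log2 fold change ± SE (y axis) of the mitochondrial genes in map order (x axis) at 12 h and at 24 h against 0 h in ProT cells, coloured by class, with filled points for an edgeR adjusted p under 0.05 and a dashed line at the median of the 35 genes. mt-Nd6 and mt-Te sit nearest to 0 among the well-counted genes at 24 h, and at 12 h mt-Nd4, mt-Cytb, mt-Co2 and mt-Atp6 lie between -0.25 and -0.12 while the rRNAs lie at -0.75 and -0.89.

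Differences from 0 h first passed at 12 h. At 6 h, 0 of 35 mitochondrial genes and 0 of 13610 genes overall (0%) passed in edgeR, with 4 and 734 of them at an unadjusted p under 0.05, and DESeq2 also called 0 mitochondrial genes. At 12 h, 20 were lower, against a background of 12.0% of genes in either direction and 5.69% lower: 4 mRNAs, both rRNAs and 14 tRNAs. Between 12 and 6 h, 14 were lower (background 10.9% in either direction, 5.31% lower). At 18 h, 14 were lower against 0 h (background 8.82% in either direction, 3.92% lower), and between 24 and 12 h none passed in edgeR (0 of 35; background 0.191%; 6 at an unadjusted p under 0.05; 0 by DESeq2). A test over the 5 times together called 25 of 35, against 18.0% of genes. These comparisons share libraries, and the 0 h libraries enter 4 of them.

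The counts at 12 and 18 h rested on few libraries. Without the 3 libraries singled out, the median log2 fold change of the mitochondrial genes was -0.85 at 12 h and -0.60 at 18 h. Between 12 and 6 h it was -0.88. With all libraries these medians were -0.75, -0.60 and -0.39. Without the 3 libraries, 1 library was left at 12 h, so counts of calls from that fit are no test and are not used here. Leaving out 1 library of those compared kept 13 of the 20 calls at 12 h, 2 of the 14 at 18 h and 4 of the 14 between 12 and 6 h. The calls kept at 18 h were mt-Tm and mt-Tq, and those kept between 12 and 6 h were mt-Nd5, mt-Tl1, mt-Tm and mt-Tp. The count at 18 h was 4 and 7 without 0 h libraries 1 and 2, where 619 and 471 of all genes passed. It was 2 and 9 without 18 h libraries 1 and 2, where 419 and 769 passed, against 1200 with all libraries. Between 12 and 6 h it was 7 and 4 without 6 h libraries 2 and 3, where 657 and 798 passed, against 1477. Without 12 h library 1 it was 17 at 12 h, 11 between 12 and 6 h and 3 between 24 and 12 h. Over all genes it was then 1521, 1698 and 213, against 1635, 1477 and 26 with that library. The 4 mRNAs lower at 12 h were mt-Nd5 at -0.76, mt-Atp8 at -0.76, mt-Nd4l at -0.57 and mt-Nd2 at -0.50 on the log2 scale, with SE from 0.15 to 0.17. At 18 h the 4 were mt-Nd5 at -0.67, mt-Nd2 at -0.62, mt-Nd3 at -0.60 and mt-Nd4l at -0.58, with SE from 0.15 to 0.18.

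**Figure D4:**
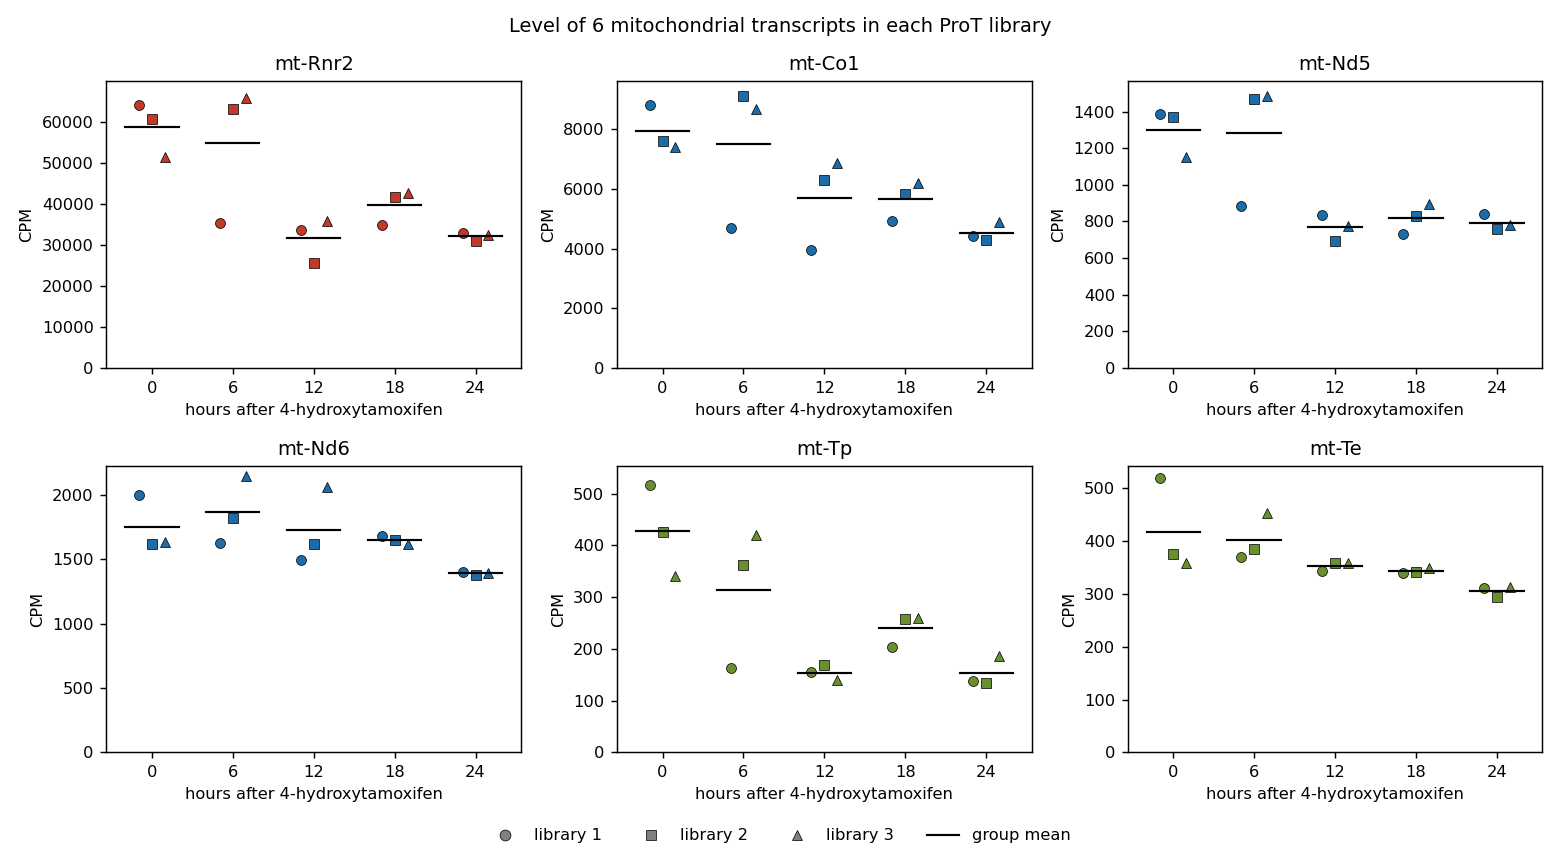
Level in CPM (y axis, linear from 0) of 6 mitochondrial transcripts in each ProT library at 5 times (x axis), with library number as symbol and the group mean as a bar. For mt-Rnr2, mt-Co1, mt-Nd5 and mt-Tp, 6 h library 1 lies with the later times (mt-Nd5 at 886 CPM against 1470 and 1488), whereas its mt-Nd6 (1626 CPM) and mt-Te (370 CPM) lie within the range of the 0 h libraries.

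The 6 h library 1 stood apart in nuclear genes too. On the first axis of a multidimensional scaling of nuclear genes alone it lay at -0.12, with the other 6 h libraries at -0.78 and -0.66, the 0 h libraries from -0.88 to -0.44 and all later ones from 0.15 to 0.51. It had mt-Tp at 162 CPM, near the 24 h level, and mt-Nd6 at 1626 CPM, near the 0 h level. Without it the median log2 fold change of the mitochondrial genes at 6 h was 0.03, compared with -0.19 with it.

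The 12 h libraries 2 and 3 differed from library 1 in the balance between rRNA and mRNA. Summed rRNA over summed mRNA counts came to 0.506 and 0.606 in these 2 libraries and 0.920 in library 1 of 12 h. The other 12 ProT libraries lay from 0.824 to 1.05, with a mean of 0.974 ± 0.0706 at 0 h and 0.864 ± 0.0380 at 24 h (SD, n = 3). In libraries 2 and 3, mt-Cytb stood at 10045 and 11429 CPM, at and above the 0 h libraries (9589 to 11084 CPM), whereas mt-Rnr1 stood at 7062 and 9026 CPM, under every other ProT library. mt-Rnr2 was at 25552 and 35817 CPM, against 33706 CPM in library 1. These libraries had 15.4 and 14.7% of reads aligned more than once, against 12.7 to 14.4% in the other ProT libraries, and the part of this in their values was not tested. An exact permutation test over samples of the F statistic between the 5 times gave F = 3.99 and p = 0.0390 for the ratio, with an adjusted p of 0.156 over the 4 such tests made, so the ratio did not pass after adjustment. Without mt-Atp8, mt-Atp6, mt-Nd4l and mt-Nd4, the exact permutation p for the ratio was 0.0771. The other mRNAs that share bases with a neighbour were kept in that ratio. Without the 3 libraries singled out, which left 1 library at 12 h, F for the ratio was 3.84. The summed mRNA in CPM gave F = 2.52 and an exact permutation p = 0.117 (adjusted p = 0.234) over all 15 libraries. Without the 3 libraries singled out, which left 1 library at 12 h, F for the summed mRNA was 17.4. The 12 h libraries 2 and 3 were singled out on a ratio that holds the summed mRNA. They stood at 67119 and 77716 CPM in that sum, against 51809 in 12 h library 1. This F is thus no test of the summed mRNA. Without 12 h library 1 alone the summed mRNA gave F = 4.70 and the ratio F = 24.7. That run keeps at 12 h only libraries 2 and 3, which were singled out on this ratio. Neither F is thus a test. Without 12 h library 2 or 3 alone the ratio gave an exact permutation p of 0.0697 or 0.0580. Without 6 h library 1 alone the summed mRNA gave F = 4.57 and an exact permutation p = 0.0332. These p-values without libraries were not adjusted.

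**Figure D5:**
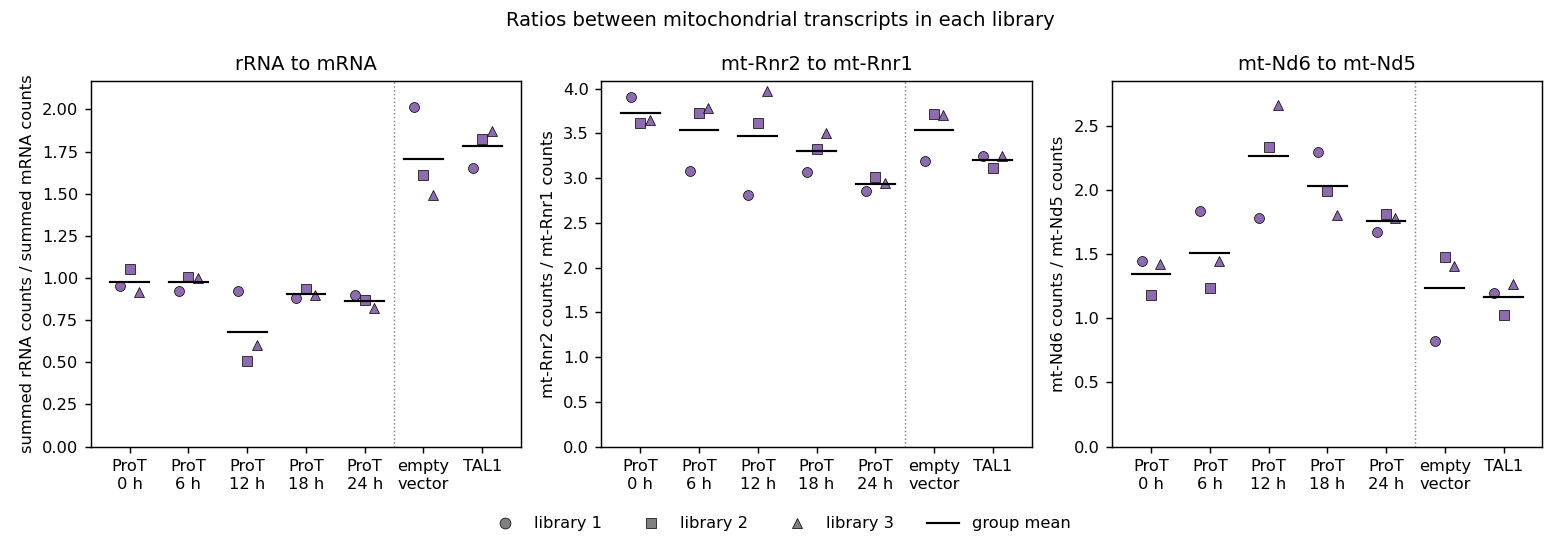
Ratios of counts (y axes, linear from 0) between summed rRNA and summed mRNA, between mt-Rnr2 and mt-Rnr1, and between mt-Nd6 and mt-Nd5 in each library of the 7 groups (x axis), with the group mean as a bar; the dotted line separates tables deposited separately. The rRNA to mRNA ratio is lowest in 12 h libraries 2 and 3 (0.506 and 0.606), the mt-Rnr2 to mt-Rnr1 ratio is lower at 24 h than at 0 h in every library, and the mt-Nd6 to mt-Nd5 ratio is above the 0 h libraries from 12 h on.

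Since mt-Nd6 and mt-Nd5 lie end to end on opposite strands, their counts can be set beside each other within a library. mt-Nd6 counts over mt-Nd5 counts came to 1.35 ± 0.148 at 0 h, 2.26 ± 0.447 at 12 h, 2.03 ± 0.245 at 18 h and 1.75 ± 0.0730 at 24 h (SD, n = 3). The single libraries at 12 h stood at 1.78, 2.34 and 2.66, and those at 24 h at 1.67, 1.81 and 1.78. Each of the 9 libraries from 12 h on lay above the 0 h libraries, at 1.45, 1.18 and 1.42. At 6 h, library 1 lay at 1.83 and the other two at 1.24 and 1.45. No test was made of this ratio.

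Nuclear genes that serve mitochondrial transcripts passed in both directions in ProT cells. Of 17 tested genes for transcription and replication of mitochondrial DNA, 1 rose and 3 fell at 24 h, against 18.7% of all genes in either direction, with a median log2 fold change of -0.26, against -0.01 for all genes. Polg, the catalytic subunit of the mitochondrial DNA polymerase, rose by 0.65 ± 0.20 (SE; edgeR adjusted p = 0.0258) on the log2 scale at 24 h, and was higher already at 12 h (0.99 ± 0.20, edgeR adjusted p = 0.00149) and 18 h (0.88 ± 0.21, edgeR adjusted p = 0.00742). Its level was 8.86 ± 1.55 CPM at 0 h, 17.4 ± 0.518 at 12 h and 13.6 ± 2.92 at 24 h (SD, n = 3). Ssbp1, which coats single-stranded mitochondrial DNA, fell at 24 h from 142 ± 9.07 to 95.1 ± 9.0 CPM (SD, n = 3), a log2 fold change of -0.57 ± 0.13 (SE; edgeR adjusted p = 0.00274). Mterf3, a negative regulator of mitochondrial transcription, fell by 0.73 ± 0.25 (SE; edgeR adjusted p = 0.0355) on the log2 scale at 24 h, from 10.2 ± 2.11 to 5.92 ± 0.534 CPM (SD, n = 3). Mterf1b, a copy of a termination factor gene with a near-identical partner, fell from 3.25 ± 1.43 to 0.841 ± 0.409 CPM (SD, n = 3) and is uncertain for that reason.

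Of 36 tested genes for processing and stability of mitochondrial RNA, 2 rose and 0 fell at 24 h, against 18.7% of all genes, with a median log2 fold change of 0.03. Those that rose were Grsf1, an RNA-binding protein of mitochondrial RNA granules, by 0.46 ± 0.14 (SE; edgeR adjusted p = 0.0262), and Pde12, a deadenylase of mitochondrial RNA, by 0.60 ± 0.21 (SE; edgeR adjusted p = 0.0408). At 12 h, 0 rose and 2 fell, against 12.0% of all genes: Trnt1, which adds the CCA end to tRNAs, by 0.45 ± 0.11 (SE; edgeR adjusted p = 0.00875) and Cdk5rap1, a tRNA-modifying enzyme, by 0.76 ± 0.25 (SE; edgeR adjusted p = 0.0445) on the log2 scale. Trnt1 stood at 51.5 ± 1.87 CPM at 0 h and 37.8 ± 2.03 at 12 h (SD, n = 3). Between 12 and 6 h, 0 rose and 3 fell, against 10.9% of all genes: Fastkd1, Trnt1 and Fastk, by 0.73, 0.40 and 0.56 on the log2 scale. At 18 h Fastk alone in this list passed, 1 of 36, against 8.82% of all genes. Its log2 fold change was -0.55 ± 0.17 (SE; edgeR adjusted p = 0.0421).

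Of 23 aminoacyl-tRNA synthetase genes that act in mitochondria, 1 rose and 1 fell at 24 h, against 18.7% of all genes. Kars, whose lysyl-tRNA synthetase serves both cytosol and mitochondria, rose by 0.56 ± 0.15 (SE; edgeR adjusted p = 0.0115), and Hars2, for histidine, fell by 0.47 ± 0.16 (SE; edgeR adjusted p = 0.0390) on the log2 scale. Among 11 tested nuclear regulators of mitochondrial biogenesis, 1 passed at 24 h, against the same 18.7%. This was Pprc1, a PGC-1-related coactivator, which rose by 0.51 ± 0.17 (SE; edgeR adjusted p = 0.0336). Of the 77 mitochondrial ribosomal protein genes, 7 rose and 3 fell, with a median log2 fold change of 0.10. Mrpl45, Mrps15, Mrpl12 and Mrpl40 rose by 0.51, 0.45, 0.44 and 0.60, and Mrpl20, Mrpl57 and Mrpl33 fell by 0.48, 0.50 and 0.57 on the log2 scale. In all 10 of the 77 passed, against 18.7% of all genes. At 6 h 0 genes of the 5 lists passed, where 0 of 13610 genes passed overall.

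In thymus, none of 31 tested mitochondrial genes differed between TAL1 and empty-vector mice at an edgeR adjusted p under 0.05, against a background of 5.04% of 12357 genes. At an unadjusted p under 0.05 there were 4 of 31 mitochondrial genes and 2174 of all genes, and DESeq2 called 0 mitochondrial genes. The median log2 fold change was 0.09 over the 31 genes and 0.00 over all genes. The 13 mRNAs lay between -0.14 for mt-Nd3 and 0.23 for mt-Nd4l, with SE from 0.07 to 0.19. mt-Tf, mt-Tw, mt-Td, mt-Tk, mt-Th and mt-Ts2 did not pass the filter, with mt-Tw and mt-Ts2 at 0 counts in all 3 TAL1 mice, where 3 counts would be 0.265 to 0.770 CPM in a thymus library.

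The largest difference in thymus was that of mt-Tg, the glycine tRNA. It had 10, 7 and 9 counts in the empty-vector mice and 35, 32 and 68 in the TAL1 mice, or 1.66, 1.80 and 1.89 CPM against 5.0, 4.40 and 6.11 CPM. The groups did not overlap, and the log2 fold change was 1.53 ± 0.49 (SE; edgeR adjusted p = 0.108). mt-Ts1 stood at 424, 303 and 313 CPM with the empty vector and 426, 464 and 413 CPM in TAL1 mice, a log2 fold change of 0.32 ± 0.12 (SE; edgeR adjusted p = 0.178). mt-Rnr1 stood at 17496, 14288 and 14329 CPM against 17865, 17950 and 17191 CPM, a log2 fold change of 0.20 ± 0.08 (SE; edgeR adjusted p = 0.181). Both overlapped through empty-vector mouse 1, and without that mouse both passed, mt-Ts1 at a log2 fold change of 0.50 (edgeR adjusted p = 0.00709) and mt-Rnr1 at 0.30 (edgeR adjusted p = 0.00386). With any other single mouse left out, 0 mitochondrial genes passed, and the smallest edgeR adjusted p in a run was 0.157 to 0.243. With no filter on low counts mt-Ts1 passed as well (0.32, edgeR adjusted p = 0.0370). mt-Te, at 57.9, 53.2 and 58.1 CPM against 65.9, 70.0 and 71.8 CPM, did not overlap and had an edgeR adjusted p of 0.235.

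Among the mRNAs, mt-Co1 stood at 2449, 2859 and 3232 CPM in empty-vector and 3716, 2991 and 2958 CPM in TAL1 mice, and mt-Cytb at 4915, 6294 and 7078 CPM against 6783, 5688 and 5426 CPM. The groups overlapped for every mRNA. mt-Nd5 was at 1672, 1265 and 1419 CPM with the empty vector and 1594, 1836 and 1312 CPM in TAL1 mice, a log2 fold change of 0.12 ± 0.12 (SE; 95% interval -0.15 to 0.39). The summed mRNA came to 41561 ± 4487 CPM with the empty vector and 41050 ± 3384 in TAL1 mice (SD, n = 3; two-sided exact permutation p = 0.9, where 3 against 3 cannot go below 0.1). The rRNA to mRNA ratio was 1.71 ± 0.277 and 1.78 ± 0.116 (SD, n = 3; two-sided exact permutation p = 0.7). Of 161 tested genes in the 5 nuclear lists, 1 differed, against 5.04% of all genes. This was Mrpl12, a ribosomal protein that also binds the mitochondrial RNA polymerase. It stood at 34.0 ± 3.20 CPM with the empty vector and 56.8 ± 0.750 in TAL1 mice (SD, n = 3). Its log2 fold change was 0.74 ± 0.15 (SE; edgeR adjusted p = 0.0108). Reads in no feature were 33.0% in each empty-vector mouse and 29.8 to 30.3% in TAL1 mice. Summed T lineage markers were 11926 to 13938 and 15073 to 16554 CPM, stromal markers 150 to 203, with Foxn1 and Krt5 at 0, and 109.1 to 117.2, with Krt8 at 0 too. Myeloid markers came to 14.4 to 28.8, with Mpo and Elane at 0, and 9.5 to 366 CPM. The part of these values in the thymus result was not tested.

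The mix of mitochondrial transcripts in thymus is set here beside that of ProT cells at 0 h, with no test, since the tables were deposited separately and come from different cells. The rRNA to mRNA ratio was 1.49 to 2.02 in the 6 thymus libraries and 0.918 to 1.05 in the 3 ProT libraries at 0 h. Summed tRNAs came to 655 to 1028 CPM in thymus and 3863 to 5376 in ProT cells at 0 h. Complex I mRNAs made up 57.5% ± 0.958 of the mRNA counts in empty-vector thymus and 44.1% ± 0.583 in ProT cells at 0 h (SD, n = 3), and complex IV mRNAs 18.6% ± 0.16 and 30.1% ± 0.120 (SD, n = 3). In empty-vector thymus, the highest levels per length were mt-Rnr2 at 34129 and mt-Rnr1 at 16095 CPM per kb, followed by mt-Nd4 at 7219, mt-Cytb at 5329 and mt-Atp6 at 5299 CPM per kb. mt-Ts1, first in ProT cells, was at 5022 CPM per kb there, and mt-Nd3 at 1384 CPM per kb, against 6776 in ProT cells at 0 h.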

How the data were processed

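The deposited tables hold raw counts per gene and library, which the authors made with HTSeq from reads aligned with HISAT2 to mm10 (GRCm38), with FastQC and SAMtools also named per the submitters' processing notes. Their versions, the annotation release, the strand setting and RNA selection are not given in the sources used here. RNA was sequenced from 15 ProT and 6 thymus libraries, each at 2660641 counts in genes or more. The 5 summary lines of each table stayed out of totals and tests.

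Genes were kept by filterByExpr and tested with edgeR 4.0.16 (R 4.3.3, limma 3.58.1): TMM factors, the quasi-likelihood F test, Benjamini-Hochberg adjustment over all genes kept and a threshold of 0.05. ProT times were fitted over 15 libraries and thymus over 6. Single values per library had exact permutation tests over samples. Scripts were tested on simulated data. Alternatives were DESeq2 1.42.0, other scalings, no filter, a replicate block, fits on the times compared and each library left out. All mitochondrial genes are named, and from each nuclear list up to 4 genes per direction with the smallest p. The genes and lists were chosen with earlier results of these data known. The values of 1 marker gene are not reported here.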

Additional observations from a re-analysis of the deposited data

How the results depend on the processing

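No value that passed a test changed sign under an alternative that was run. Values that did not pass changed sign in places. The difference in summed mRNA between TAL1 and empty vector, -510 CPM, was 420 with the total of nuclear genes and ranged from -2820 to 1661 with 1 mouse left out. The difference in rRNA to mRNA ratio, 0.0786, ranged from -0.0290 to 0.235 with 1 mouse left out. The median log2 fold change at 6 h, -0.19, was 0.03 without 6 h library 1. For mitochondrial genes called between 18 and 0 h, the count was 14 and became 9 with DESeq2, 26 with no filter on low counts, 29 in a fit on the times compared only, and 29 without the 3 libraries singled out. Between 12 and 6 h the count of 14 became 8 in a fit on the times compared only and 28 without those 3 libraries. The fit without those 3 libraries left 1 library at 12 h, and the 3 were singled out after seeing the data. The counts from that fit are thus no test, and no conclusion is drawn from their rise. With no filter on low counts, 2 genes passed between 24 and 12 h and 1 passed between TAL1 and empty vector. The F statistic between times for the summed mRNA, 2.52, was 17.4 without the 3 libraries. That for the rRNA to mRNA ratio, 3.99, was 3.10 without mt-Atp8, mt-Atp6, mt-Nd4l and mt-Nd4 and 3.84 without the 3 libraries. Leaving out 1 library at a time gave, against 0 h, 14 to 22 genes for 12 h, from 2 up to 15 for 18 h, 22 to 29 for 24 h, 4 to 20 between 12 and 6 h, 0 to 3 between 24 and 12 h, 20 to 30 over all times and 0 to 2 in thymus. It gave an F of 1.76 to 4.70 for the summed mRNA and of 2.30 to 24.7 for the ratio. The upper value of each came without 12 h library 1 and is no test, as given above. Apart from the fit without the 3 libraries singled out, the other counts at 24 h were 25 to 32 and at 12 h 17 to 24. At 6 h 0 mitochondrial genes passed under every alternative. The cause of these differences was not tested.

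Scaling by library size alone moved the median log2 fold change of all genes to 0.18, 0.13 and 0.17 at 12, 18 and 24 h. Genes called as higher then made up 85.8, 82.0 and 80.5% of calls, against 52.7, 55.5 and 50.3% with TMM factors. The mitochondrial genes called lower were then 17, 11 and 25. With library size alone, mt-Cytb, mt-Nd4, mt-Rnr1 and mt-Te no longer passed at 24 h. The median of the mitochondrial genes at 24 h lay 0.86 below that of all genes on the log2 scale under both scalings. A change of scaling shifts all genes nearly alike, so this gap is no check on the scaling. Library numbers did not pair ProT libraries, since 1 of 30 same-number correlations of deviations was over 0.1 and 4 of 15 libraries correlated best with their own number. With the replicate block the counts were 0, 21, 21 and 30 at 6, 12, 18 and 24 h, 14 between 12 and 6 h, 0 between 24 and 12 h and 29 over all times. Thymus mice carry individual numbers only, so no block was fitted there. The low counts of tRNA genes limit what could be called, with 2 mitochondrial genes in ProT cells and 6 in thymus not tested.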
